A study of Mus musculus with 4 samples.

Results

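The Ly6 surface protein family was followed in mouse bone marrow 8 h after an intraperitoneal injection of lipopolysaccharide (LPS), a glycolipid of the outer membrane in Gram-negative bacteria. The family is taken here as 10 listed genes: Ly6a, Ly6c1, Ly6c2, Ly6d, Ly6e, Ly6f, Ly6g, Ly6i, Ly6k and Ly6h. A gene counted as measured when a probe set of the array was annotated to its symbol alone, and the brightest such probe set stood for it. This held for 7 of the 10 members, out of 19938 genes in all, and each of the 7 had a single probe set. Ly6c1 and Ly6c2 shared their probe sets with each other, and the annotation used here named no probe set for Ly6a.

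The samples were bone marrow cells of C57BL/6N mice. The PBS group (2 arrays, replicates 1 and 3 by their titles) received phosphate-buffered saline, and the LPS group (2 arrays, replicates 1 and 2) received 50 µg of a mixture of LPS from E. coli K12 and S. minnesota. No allele or transgene is named, and the labels give neither the age of the mice nor whether an array held RNA of 1 mouse, so the spread between arrays may be partly technical. On all 4 arrays, 16 of 16 neutrophil markers, 7 of 7 erythroid markers and 9 of 11 B-cell precursor markers lay above the median gene, which stood between 8.01 and 8.03 log2.

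Ly6 proteins are small cysteine-rich proteins of the Ly6/uPAR (LU) domain fold, and most are held at the cell surface by a glycosylphosphatidylinositol (GPI) anchor. In the marrow they are best known as labels of cell types. Ly6g marks neutrophils and Ly6c marks inflammatory monocytes, and antibodies to the Gr-1 antigen bind both. Ly6d marks lymphoid progenitors on the way to B cells, and Ly6a is the stem cell antigen Sca-1. Several members, Ly6a and Ly6e among them, are also known as interferon-inducible genes.

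The RefSeq promoter table (GRCm38.p6) held windows for 4 of the 10 members, Ly6c1, Ly6c2, Ly6f and Ly6g, each running from 250 bases before to 50 bases after a transcript start. They are shown because close relatives within the locus differed in their response to LPS. The sequences run 5′ to 3′, and capitals mark TATAAA, the only searched motif found in them. The Ly6g window is chr15:75155079-75155378 (plus strand), that of Ly6f chr15:75268171-75268470 (plus strand), that of Ly6c1 chr15:75048788-75049087 (minus strand) and that of Ly6c2 chr15:75111922-75112221 (minus strand).
Ly6g: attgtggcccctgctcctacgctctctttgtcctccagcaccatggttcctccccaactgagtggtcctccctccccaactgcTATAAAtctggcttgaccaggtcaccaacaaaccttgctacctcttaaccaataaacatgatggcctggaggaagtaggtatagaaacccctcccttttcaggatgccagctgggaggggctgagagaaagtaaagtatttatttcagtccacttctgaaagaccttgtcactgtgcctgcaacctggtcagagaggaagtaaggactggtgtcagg
Ly6f: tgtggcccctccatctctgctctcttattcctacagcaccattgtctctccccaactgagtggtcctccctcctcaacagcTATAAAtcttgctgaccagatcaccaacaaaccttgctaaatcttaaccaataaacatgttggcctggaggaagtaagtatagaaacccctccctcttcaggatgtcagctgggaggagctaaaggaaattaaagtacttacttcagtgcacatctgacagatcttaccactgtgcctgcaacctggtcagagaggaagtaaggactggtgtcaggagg
Ly6c1: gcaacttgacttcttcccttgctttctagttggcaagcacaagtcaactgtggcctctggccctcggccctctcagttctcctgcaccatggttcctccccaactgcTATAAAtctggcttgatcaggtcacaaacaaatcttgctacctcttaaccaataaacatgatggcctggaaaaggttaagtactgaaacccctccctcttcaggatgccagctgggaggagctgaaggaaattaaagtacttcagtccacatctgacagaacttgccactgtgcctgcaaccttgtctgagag
Ly6c2: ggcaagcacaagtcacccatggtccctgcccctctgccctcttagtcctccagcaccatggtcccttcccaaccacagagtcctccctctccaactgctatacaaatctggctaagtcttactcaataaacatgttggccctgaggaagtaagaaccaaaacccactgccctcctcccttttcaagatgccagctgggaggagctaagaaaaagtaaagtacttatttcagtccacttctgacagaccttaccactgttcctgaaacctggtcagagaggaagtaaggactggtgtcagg

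The Ly6g and Ly6f windows were the most alike of the 6 pairs, with 86.8% identical positions in a global alignment that counted gaps. The other pairs had 62.9% (Ly6c1 and Ly6c2) to 72.9% (Ly6c2 and Ly6g). Since the windows compared were picked for their likeness, these values may be raised by that choice. They may also be lowered, since windows placed by different starts leave unpaired ends that count as gaps. The letters that open the Ly6c2 window lie further inside that of Ly6c1. The 62.9% of this pair is thus no measure of how alike their promoters are. TATAAA lay 167 bases before the start in Ly6g, 169 in Ly6f and 143 in Ly6c1, and it was not among the letters of the Ly6c2 window. Of the windows not printed, that of Ly6g overlaps the printed one and held the same TATAAA, at position -99 from its own start. The unprinted windows of Ly6c1 and Ly6c2 lacked it. TATAAA occurs in 13.6% of all 32851 windows of 300 bases in the table. On either strand, the windows of these 4 genes held no match to 3 other motifs. The interferon-stimulated response element was searched as GAAA, any 2 bases and GAAA (in 3.44% of all windows), the STAT site as TTC, any 3 bases and GAA (in 8.3%), and the NF-kappaB site as GGG, any 2 bases, TT, any base and CC (in 4.79%). These letters may lie outside the windows searched.

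Among the 7 measured members, Ly6i was far higher after LPS, Ly6g was lower, and the other 5 differed by at most 0.24 log2. In the limma fit over all genes, 1 of the 7 passed an adjusted p under 0.05 as higher and 1 as lower. Over all 19938 genes 2.39% passed as higher and 1.27% as lower, and 3149 had an unadjusted p under 0.05. The members were selected on the family list and on the log2 values of these arrays, with the LPS and PBS difference in view, so nothing is read from their count and their differences are given without a test. In a fit over all 35556 probe sets, Ly6g no longer passed, and an ordinary linear model without moderation passed 0 genes (2185 at an unadjusted p under 0.05). The median difference of the 7 was 0.19 log2 (0.05 without PBS replicate 1), against -0.01 over all genes.

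**Figure D1:**
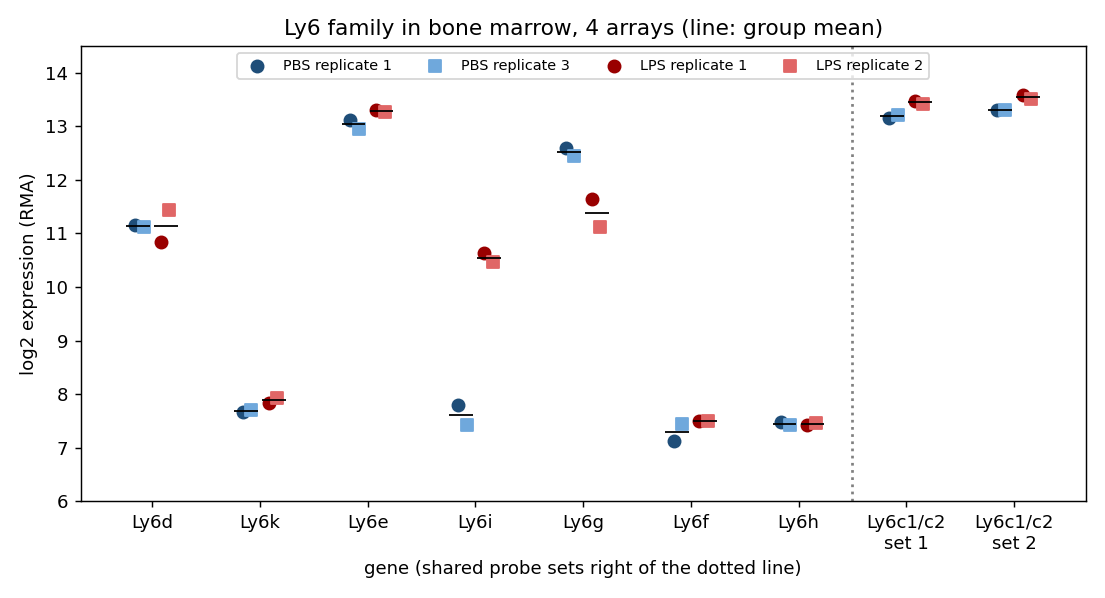
Log2 expression after RMA (vertical axis) of the 7 measured Ly6 genes and of the 2 probe sets shared by Ly6c1 and Ly6c2 (horizontal axis), with a point for each of the 4 arrays and a line at each group mean. Ly6i stands at 10.46 and 10.63 on the LPS arrays and at 7.42 and 7.79 on the PBS arrays, Ly6g is lower on both LPS arrays, and the LPS arrays of Ly6d lie on either side of its PBS arrays; heights of different genes come from different probes and are not comparable.

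Ly6i, a little-studied relative of Ly6c, had a log2 value of 7.79 in PBS replicate 1 and 7.42 in PBS replicate 3. It reached 10.63 in LPS replicate 1 and 10.46 in LPS replicate 2. The LPS arrays thus lay far above both PBS arrays, and the gap between groups was many times that between arrays of a group. Group means came to 7.60 ± 0.27 in PBS and 10.55 ± 0.12 in LPS (SD, n = 2). The log2 difference was 2.94 (SE 0.136, 95% interval 2.62 to 3.26), a 7.68-fold higher level. The PBS mean stood 0.41 log2 below the median gene, and no background level was available for it, so the fold itself is uncertain in size.

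The 5 genes outside the family whose values over the 4 arrays, centred on each gene's own mean, lay nearest to those of Ly6i were Ifit3b, Gbp5, Iigp1, Tnip3 and Ubd. Their Euclidean distances from Ly6i ran from 0.258 to 0.476 log2. Ifit3b, an interferon-induced gene, differed by 2.69 log2, and Iigp1 and Gbp5, which encode interferon-induced GTPases, by 3.05 and 3.01. Tnip3, a brake on NF-kappaB signalling, differed by 2.61, and Ubd, a ubiquitin-like modifier, by 2.63. Likeness over 4 arrays in 2 groups mostly reflects the size of the difference between the groups.

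Ly6g, the surface antigen by which mouse neutrophils are identified, had a log2 value of 12.59 in PBS replicate 1 and 12.44 in PBS replicate 3. It was 11.64 in LPS replicate 1 and 11.11 in LPS replicate 2. Both LPS arrays lay below both PBS arrays, and LPS replicate 2 was the lowest of the 4. Group means came to 12.52 ± 0.11 in PBS and 11.38 ± 0.37 in LPS (SD, n = 2). The difference was -1.14 log2 (SE 0.165, 95% interval -1.52 to -0.76), a level 2.20-fold lower. In RNA of whole marrow, fewer cells of a type and less RNA per cell cannot be told apart.

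Of 16 neutrophil markers, 1 passed as lower and 0 as higher, and 15 had differences below 0. Their median was -0.22 log2 (-0.13 without PBS replicate 1; -0.09 if LPS replicate 2 is left out). The number lower was 0 in the fit over all probe sets and 4 without PBS replicate 3. In fits that leave out an array, 1 group holds a single array, which is assumed to vary like the other group. Retnlg, a resistin-like gene of mature neutrophils, fell by 0.76 log2 (SE 0.124, limma adjusted p = 0.0171; 0.103 in the fit over all probe sets). Csf3r, the receptor of the growth factor G-CSF, had -0.63 (adjusted p = 0.0565), and the calprotectin genes S100a8 and S100a9 had -0.07 each. Averaged over the 16 markers, the log2 level in PBS was 12.33 (replicate 1) and 12.18 (replicate 3), and in LPS it was 12.09 (replicate 1) and 11.92 (replicate 2). Every one of the 16 was lower in LPS replicate 2 than in LPS replicate 1, as Ly6g was. Of all 19938 genes, 10019 were lower in LPS replicate 2. The PBS arrays also differed: the median of the 16 was -0.12 log2 for PBS replicate 3 minus replicate 1. It was -0.18 for LPS replicate 2 minus replicate 1. Ly6g had -0.15 between the PBS arrays and -0.53 between the LPS arrays. Ly6g had a more negative difference than any of the 16, whose lowest value was -0.76. The part of these markers in the difference of Ly6g was not tested.

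The non-member genes nearest in pattern to Ly6g were Bmx, Mirt2, Slc9a9, Slc26a7 and Slco2b1, at distances of 0.178 to 0.309 log2. Bmx encodes a cytoplasmic tyrosine kinase and differed by -1.13 log2. The transporter genes Slc9a9, Slc26a7 and Slco2b1 differed by -1.14, -1.17 and -1.04, and the long noncoding RNA Mirt2 by -0.92. None of the 5 stood in the neutrophil list of 16 genes, whose lowest difference was -0.76 log2. As for Ly6i, nearness in pattern mostly reflects the size of the difference between the groups, so nothing is read from this.

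**Figure D2:**
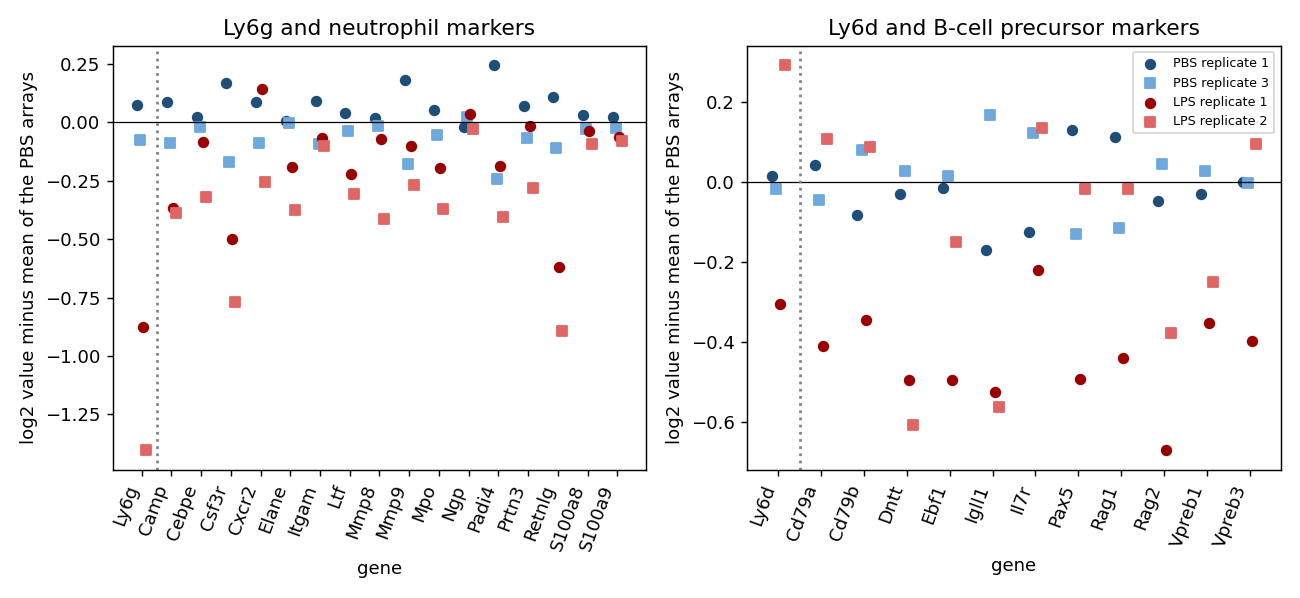
Log2 value of each gene on each of the 4 arrays minus the mean of its PBS arrays (vertical axis), for Ly6g with the 16 neutrophil markers (left panel) and Ly6d with the 11 B-cell precursor markers (right panel); the dotted line sets the Ly6 gene apart. On each LPS array Ly6g lies lower than any neutrophil marker, and Ly6d is low in LPS replicate 1 and high in LPS replicate 2.

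Ly6d had a difference near 0 that covered a split between the LPS arrays. It stood at 11.15 and 11.12 log2 in PBS replicates 1 and 3, at 10.83 in LPS replicate 1 and at 11.43 in LPS replicate 2. The LPS arrays lay on either side of the PBS arrays and were 0.598 log2 apart, while the PBS arrays were 0.032 apart. The median gene had a gap of 0.095 between the LPS arrays. The difference of the means was -0.01 log2 (SE 0.176, 95% interval -0.42 to 0.40). It was -0.31 without LPS replicate 2 and 0.29 without LPS replicate 1.

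B-lineage genes showed a like split. Of 11 B-cell precursor markers, 9 were higher in LPS replicate 2 than in LPS replicate 1, with a median gap of 0.356 log2. Of all 19938 genes, 9903 were higher in LPS replicate 2. Among the 11 markers, the B-cell receptor signalling gene Cd79a had the largest gap, 0.519. Next came the surrogate light chain partner gene Vpreb3 with 0.495 and the lineage factor gene Pax5 with 0.475. Dntt, the template-free DNA polymerase of early lymphoid cells, and the surrogate light chain gene Igll1 were instead lower in LPS replicate 2, by gaps of -0.114 and -0.038. Between LPS and PBS, all 11 markers had negative differences and 1 passed as lower, Dntt (-0.55 log2, SE 0.0918, limma adjusted p = 0.0184; 0.0946 without LPS replicate 2 and 0.087 in the fit over all probe sets). The number lower was 3 without PBS replicate 1. Over all genes, 10468 of 19938 differences were negative. The median of the 11 markers was -0.25 log2, with -0.02 without LPS replicate 1 and -0.44 without LPS replicate 2. The mean level of the 11 markers was 10.53 and 10.57 log2 in PBS replicates 1 and 3, 10.11 in LPS replicate 1 and 10.41 in LPS replicate 2. The part of these markers in the values of Ly6d was not tested.

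Ly6e, also called Sca-2, encodes an interferon-inducible surface protein that hinders the entry of some viruses. It stood at 13.12 and 12.95 log2 in PBS replicates 1 and 3 and at 13.30 and 13.26 in LPS replicates 1 and 2. Both LPS arrays were higher than both PBS arrays. The difference was 0.24 log2 (SE 0.097, 95% interval 0.02 to 0.47), a 1.18-fold higher level.

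The probe sets shared by Ly6c1 and Ly6c2, close copies whose signals cannot be told apart here, lay outside the rule that a probe set name 1 gene. The first stood at 13.16 and 13.21 log2 in PBS replicates 1 and 3 and at 13.47 and 13.42 in LPS replicates 1 and 2. The second stood at 13.30 and 13.31 in PBS and at 13.58 and 13.51 in LPS. On both probe sets the LPS arrays lay above the PBS arrays. The differences were 0.27 log2 (SE 0.0868, 95% interval 0.05 to 0.49) and 0.24 (SE 0.0866, 95% interval 0.02 to 0.46), from the fit over all probe sets.

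Monocyte markers, beside which Ly6c is usually read, changed in both directions. Of 13 markers, 2 rose and 1 fell, with a median difference of -0.04 log2 that ran from -0.18 without PBS replicate 1 to 0.07 without LPS replicate 2. Adgre1, a surface receptor of macrophages, rose by 0.56 (SE 0.103, limma adjusted p = 0.0286) and the membrane protein gene Ms4a6c by 0.49 (SE 0.101, adjusted p = 0.0442). The lysozyme gene Lyz2 fell by 0.44 (SE 0.0906, adjusted p = 0.0456). Each of these 3 failed to pass without PBS replicate 1 (adjusted p = 0.055, 0.0989 and 0.0951), where the single PBS array is assumed to vary like the LPS arrays, without LPS replicate 1 (0.0912, 0.162 and 0.0954) and in the fit over all probe sets (0.124, 0.158 and 0.147). Ms4a6c and Lyz2 also failed without LPS replicate 2 (0.0807 and 0.231). The chemokine receptor gene Ccr2, which releases Ly6c-bearing monocytes from marrow, had -0.09 and did not pass. Averaged over the 13 markers, the log2 level in PBS was 10.62 (replicate 1) and 10.68 (replicate 3), and in LPS it was 10.67 (replicate 1) and 10.55 (replicate 2). Their part in the Ly6c values was not tested.

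Ly6k, Ly6f and Ly6h stood below the median gene in PBS and differed little between the groups. Ly6k, best known from male germ cells, was at 7.67 and 7.71 log2 in PBS replicates 1 and 3 and at 7.83 and 7.93 in LPS replicates 1 and 2. Its LPS arrays were both higher, with a difference of 0.19 (SE 0.0895, 95% interval -0.02 to 0.40). Ly6f was at 7.13 and 7.44 in PBS and at 7.50 and 7.49 in LPS. The LPS arrays again lay above the PBS arrays, but PBS replicate 3 came within 0.05 log2 of them, and the difference of 0.21 (SE 0.118, 95% interval -0.07 to 0.48) was 0.05 without PBS replicate 1. Ly6h, best known from the nervous system, was at 7.48 and 7.42 in PBS and at 7.41 and 7.47 in LPS, with overlapping arrays and a difference of -0.01 (SE 0.0882, 95% interval -0.21 to 0.20).

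Counted by array order, the LPS arrays lay above both PBS arrays in 4 of the 7 members (Ly6e, Ly6f, Ly6i and Ly6k) and below both in 1 (Ly6g). Over all genes 20.4% had LPS arrays above and 24.5% below. Ly6f and Ly6g, whose promoter windows printed above were the most alike, had differences of 0.21 and -1.14 log2. In PBS Ly6f stood 0.73 log2 below the median gene and Ly6g 4.50 above it. The part of these windows in either difference was not tested.

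All 10 members lie in a single stretch of chromosome 15, from Ly6d to Ly6h, that holds 37 RefSeq genes. Of the 27 genes there that are not members, 8 were measured, and 0 passed in either direction in the limma fit (0 at an unadjusted p under 0.05). Their differences ran from -0.23 to 0.18 log2. The locus gene Ly6a2, a close relative of Ly6a, had -0.11 log2 (SE 0.104), with PBS replicates at 13.04 and 13.14 and LPS replicates at 13.08 and 12.87. The transcribed pseudogene 9030619P08Rik had -0.23 (SE 0.114). Ly6i was flanked, among measured genes, by Ly6e (0.24) and Ly6a2 (-0.11), and Ly6g by Ly6a2 and Ly6g2 (0.00). Since genes of this locus are close copies, some probes may detect more than 1 of them, which was not tested.

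**Figure D3:**
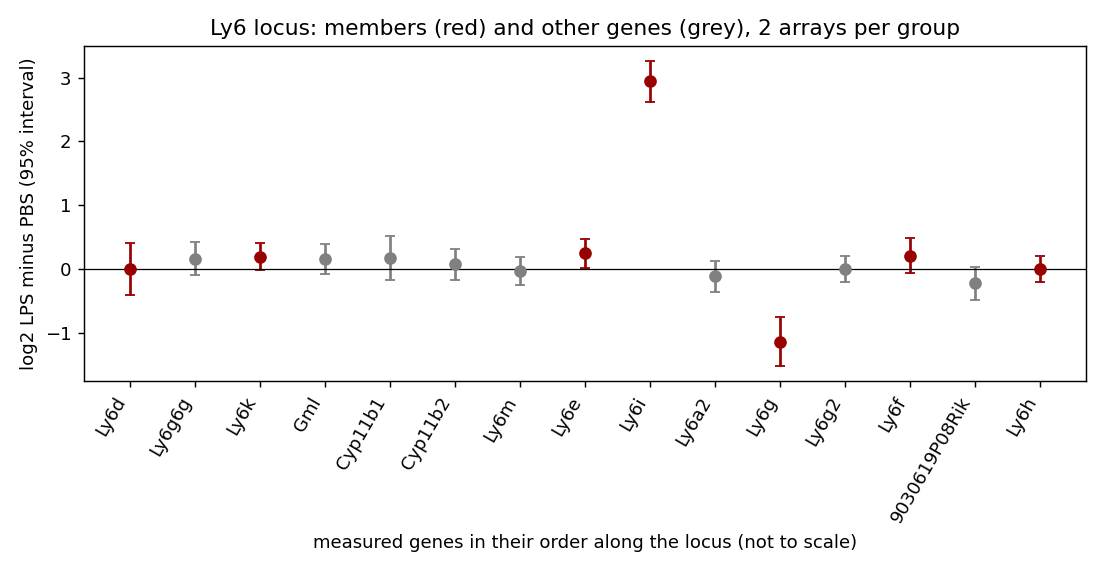
Log2 difference between LPS and PBS (vertical axis, with the 95% interval of the limma fit, 2 arrays per group) for the measured genes of the Ly6 locus on chromosome 15, in their order along the chromosome and not to scale (horizontal axis). Red points are members and grey points are the other 8 genes; only Ly6i (2.94) and Ly6g (-1.14) among the genes drawn lie more than 0.5 from 0.

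Other genes listed with the LU family did not pass. The list includes the transcribed pseudogene 9030619P08Rik. It shares this gene, Gml, Ly6m and Ly6g2 with the locus genes counted above, so the counts overlap. Of 30 measured, 0 passed in either direction by limma (3 at an unadjusted p under 0.05), and the median difference was 0.00 log2 with a range of -0.34 to 0.29. Cd59a, an inhibitor of the complement membrane attack complex, had -0.02, and Plaur, the urokinase receptor, had 0.05. All genes together had a median of -0.01, and 3149 of 19938 had an unadjusted p under 0.05 in the limma fit.

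The GPI anchor ties most Ly6 proteins to the membrane. Of 30 genes that build, attach or remodel it, 1 fell and 0 rose, with a median of -0.06 log2. The member that fell was Pgap1, an inositol deacylase that trims the anchor after its attachment. It stood at 9.95 and 10.12 log2 in PBS replicates 1 and 3 and at 8.71 and 8.83 in LPS replicates 1 and 2, so that both LPS arrays were lower. It fell by 1.26 (SE 0.100, limma adjusted p = 0.000411).

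Of 17 other surface proteins of blood cells, most of them GPI-anchored, 4 rose and 1 fell, with a median of 0.02 log2. The list also holds proteins that span the membrane, Fcgr4, Ceacam1, Treml2 and Procr among them. Its counts are therefore not those of GPI-anchored proteins alone. The Fc receptor gene Fcgr4 was among the 4 that rose (1.20, SE 0.125, limma adjusted p = 0.00177) and is named after its values were seen. The LPS co-receptor gene Cd14 rose by 1.94 (SE 0.095, adjusted p = 4.28e-05). Bst2, the interferon-induced tether of budding viruses, rose by 1.60 (SE 0.0866, adjusted p = 5.71e-05), and the protein C receptor gene Procr by 1.56 (SE 0.0924, adjusted p = 8.94e-05). Tfpi, an inhibitor of the tissue factor pathway, fell by 0.87 (SE 0.119, adjusted p = 0.00724; 0.0631 in the fit over all probe sets). Adjusted p-values are those of limma over all genes.

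Interferon is the best known inducer of Ly6 genes, and 4 of the transcription factors that act below its receptors rose, while 0 receptor genes passed. Of 19 measured genes, 4 rose and 0 fell, with a median of 0.12 log2 (0.07 without PBS replicate 3). The number that rose was 3 in the fit over all probe sets and 3 without LPS replicate 2, and 1 fell without PBS replicate 3. Irf7 rose by 1.85 (SE 0.0992, limma adjusted p = 5.71e-05), Stat2 by 1.33 (SE 0.107, adjusted p = 0.00043) and Irf1 by 1.30 (SE 0.104, adjusted p = 0.000427). With the mean of its probe sets in place of the brightest, Irf1 rose by 0.71 (adjusted p = 0.0043). The fourth, named after its values were seen, was Irf9 (0.56, SE 0.0917, adjusted p = 0.0167), the partner of Stat2. The interferon genes Ifng, Ifnb1 and Ifna4 had 0.21, 0.13 and -0.05 and did not pass. The receptor genes Ifnar1, Ifnar2, Ifngr1, Ifngr2 and Il10rb had 0.05, 0.17, -0.18, 0.20 and 0.02. The receptor gene Ifnlr1 had -0.47 (SE 0.142, 95% interval -0.80 to -0.14), with both LPS arrays lower, and did not pass.

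Markers of other marrow cells, some of which carry Ly6 proteins, were counted in the same limma fit. In it, 3149 of all 19938 genes had an unadjusted p under 0.05. Of 6 plasmacytoid dendritic cell markers, 0 passed (3 at an unadjusted p under 0.05), with a median of -0.03 log2. Tcf4 had -0.01, and Spib had -0.05, with 0.25 without LPS replicate 1 and -0.34 without LPS replicate 2. Of 11 T-cell markers 1 fell, Cd8b1 (-0.52, SE 0.106, limma adjusted p = 0.0411), with a median of -0.18. Cd8b1 did not pass in the fit over all probe sets (0.157), without PBS replicate 3 (0.0682) or without LPS replicate 2 (0.181). Of 8 natural killer markers 1 rose, the perforin gene Prf1 (0.50, SE 0.0912, adjusted p = 0.0285), and 2 fell, the receptor genes Klrd1 (-0.89, SE 0.0988, adjusted p = 0.00239) and Klra8 (-0.83, SE 0.121, adjusted p = 0.00954). In the fit over all probe sets Prf1 (0.113) and Klra8 (0.0739) did not pass, and Prf1 did not pass without PBS replicate 3 (0.0512), LPS replicate 1 (0.106) or LPS replicate 2 (0.0822). Of 8 plasma cell markers 0 passed (6 at an unadjusted p under 0.05), with Xbp1 at 0.29 and Irf4 at -0.36. Irf4 had -0.14 without LPS replicate 1 and passed without LPS replicate 2 (-0.58, adjusted p = 0.0417). Endothelial markers held 4 falls among 14, led by the sinusoidal receptor gene Stab2 (-1.26, SE 0.0869, adjusted p = 0.000206), Tek (-0.89, SE 0.113, adjusted p = 0.00489) and Ptprb (-0.66, SE 0.0979, adjusted p = 0.0107). Of the 14, 8 had differences above 0 (9470 of 19938 over all genes), and the median was 0.05 log2. In the fit over all probe sets 2 endothelial genes fell, and Ptprb did not pass (0.0679). Of 11 stem and progenitor markers 1 rose, Procr, given above, and of 7 erythroid markers 0 passed (1 at an unadjusted p under 0.05), with Slc4a1 at -0.18 and Alas2 at -0.14.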

How the data were processed

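Total RNA of bone marrow cells was hybridized to GeneChip Mouse Gene 1.0 ST arrays, 1 per sample, per the labels' protocols. The deposited log2 expression values were computed by the authors with RMA, per the submitters' processing notes. For RMA, no version or probe annotation is stated in the labels. That the values are log2 was judged from their range, which ran from 2.76 to 14.52.

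Probe sets with exactly 1 gene symbol (21789 of 35556) were kept, the brightest for each gene, which left 19938 genes. LPS and PBS were compared by a two-sided moderated test (limma 3.58.1 under R 4.3.3), with no covariate and no filter on low values. Passing means a p under 0.05 after Benjamini-Hochberg adjustment across the 19938 genes. Residual degrees of freedom were 2 and prior degrees of freedom 5.59, so the number of arrays limits the precision. In simulated data of 19938 genes, 200 of them changed, the fit recovered 20% of genes changed by 0.5 log2, 96% at 1 and 99.9% at 2, with 4.4% false among calls. The simulated noise was normal, independent between genes and drawn from the variance model of the fit. Shifts shared by many genes of an array were not simulated, so these shares may not hold for the real arrays.

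The family members and gene lists were chosen with earlier results of these data known. The members were proposed with this contrast in view, so their differences, standard errors (SE) and 95% intervals are descriptions without a test. Named beside the members were, in each list, up to 3 genes that passed in each direction (with none, the 2 brightest), and the 5 genes nearest in pattern to the members with the largest differences. Genes named outside this rule include Csf3r, S100a8, S100a9, Cd79a, Vpreb3, Pax5, Igll1, Ccr2 and the interferon and interferon receptor genes. No planned rule covers these, nor Fcgr4 and Irf9. Promoter windows were searched with Python 3.11.15 and aligned with Biopython 1.88. The planned protein comparison was not run.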

Additional observations from a re-analysis of the deposited data

How the results depend on the processing

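No paired analysis was possible because the PBS and LPS groups share only replicate number 1. Leaving out 1 array, the 2 largest differences ran from 2.75 to 3.13 log2 (Ly6i) and from -1.40 to -0.88 (Ly6g). Their direction could not change there, since both LPS arrays of each gene lay on the same side of both PBS arrays. The number of members passing was 0 higher and 0 lower in the ordinary linear model, and 0 lower with all probe sets. Over all genes, the ordinary linear model passed 0 higher and 0 lower; at an adjusted p under 0.01, 286 were higher and 58 lower; with all probe sets 63 were lower. Where 1 array is left out, the lone array of its group is assumed to vary like the other group. Leaving out 1 array gave 385 to 696 higher and 127 to 423 lower genes. The ordinary linear model passed 0 genes in every list, in place of 1 lower GPI anchor gene, 4 higher and 1 lower blood-cell surface genes and 4 higher interferon genes. With all probe sets 0 blood-cell surface genes were lower. Leaving out 1 array gave 1 to 2 lower GPI anchor genes and 0 to 1 lower interferon genes. The cause of these changes was not tested. Scaling moved the median of all genes by under 0.1 log2.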
